A study of Homo sapiens with 26 samples.

Results

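The 31 genes described here make cholesterol and fatty acids or control that synthesis. They were taken by symbol from a table of 33562 gene rows measured in 26 RNA sequencing libraries of breast cancer cells. They comprised 7 enzymes of the mevalonate pathway (ACAT2, HMGCS1, MVK, PMVK, MVD, IDI1 and FDPS), 11 enzymes of the sterol pathway (FDFT1, SQLE, LSS, CYP51A1, TM7SF2, MSMO1, NSDHL, HSD17B7, EBP, SC5D and DHCR7), 6 genes of sterol sensing and transport (SREBF1, SREBF2, SCAP, INSIG1, INSIG2 and STARD4) and 7 enzymes of fatty acid synthesis (ACLY, ACACA, FASN, SCD, FADS1, FADS2 and ELOVL6). All 31 had a row, and all 31 were among the 12589 genes with at least 1 RPKM in at least 2 libraries, which were the genes tested. RPKM, a read count scaled by gene length and by the mapped reads of the library, is the unit of every level given. No library of the control lines had less than 1.25 RPKM of any of the 31.

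The mevalonate pathway builds isoprenoid units from acetyl-CoA, and the sterol pathway joins and cyclises them into lanosterol and trims that into cholesterol. SREBP-2 (from SREBF2) mainly drives these genes, and SREBP-1 (from SREBF1) drives fatty acid synthesis as well. Both factors are made as precursors in the membrane of the endoplasmic reticulum, where SCAP escorts them to the Golgi for cleavage when sterols are low and the INSIG proteins hold SCAP back when sterols are plentiful. Tumour cells use both the lipids and the isoprenoids for membranes and for the anchoring of signalling proteins.

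The cells were MDA-MB-231Luc, a luciferase-marked line of the triple-negative breast cancer line MDA-MB-231, and every line carried the pLUTZ mRFP vector, was grown continuously in doxycycline at 0.1 to 1 mg/ml, and was kept in full medium with serum. Aurora-A kinase (AURKA), a mitotic kinase, was re-expressed from a cDNA either untagged (WT), with a nuclear export signal (NES) or with a nuclear localisation signal (NLS), and the study compared lines in which the kinase was meant to sit in the cytoplasm, the nucleus or both. The 3 control lines were Empty (libraries E, I and J), NES-Empty (C, K and L) and NLS-Empty (G, M and N), all with the guide sgCon at passages 19 to 20. The 6 AURKA lines were clones at passages 32 to 35: WT-AURKA c1 (D, O and P), WT-AURKA c2 (Q and R), NES-AURKA c1 (F, S and T) and NES-AURKA c2 (A, U and V) with the labels MUT2 and sgAURKA2, and NLS-AURKA c2 (H, W and X) and NLS-AURKA c3 (B, Y and Z) with the labels MUT1 and sgAURKA1. AURKA cDNA, guide, passage and cloning changed together between control and AURKA lines and cannot be told apart, and neither can the NLS and the change of guide. The labels do not say whether the libraries of a line were separate cultures, so each line was given 1 value, the mean of its libraries on the log2(RPKM + 1) scale. Except in fits of all 26 libraries, p-values measure the spread between lines, 2 clones for each construct.

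Libraries with letters A to H differed from those with letters I to Z before any comparison of lines. Estimated depth, rounded, was 16700000 to 20300000 reads in the 8 libraries A to H and 12200000 to 16700000 reads in the 18 libraries I to Z, and libraries of 1 line correlated at 0.965 to 0.996 within a letter set and at 0.894 to 0.946 across the sets. Counts of called genes among the 31 are therefore also given for I to Z alone. A single AURKA row cannot tell the gene and the cDNA apart, so it does not check the labels. Its level ran from 34.0 to 68.9 RPKM in the control libraries, was 14.1, 12.8, 12.7 and 14.3 RPKM in O, P, Q and R, and reached 84.1 RPKM in the library labelled D of WT-AURKA c1. In NES-AURKA it was 22.6, 37.0 and 36.2 RPKM in c1 and 36.7, 15.5 and 21.5 RPKM in c2, and in NLS-AURKA 56.5, 105 and 38.4 RPKM in c2 and 76.5, 38.8 and 40.3 RPKM in c3. Markers of the line were present in every library (VIM 234 to 1059 RPKM, CD44 32.2 to 69.4 RPKM, EGFR 22.2 to 70.7 RPKM), while the oestrogen receptor gene ESR1 did not exceed 0.0220 RPKM and PGR 0.0120 RPKM. FOXA1 and GATA3, also listed as low in this line, ran higher, from 0.0471 to 2.27 RPKM and from 0.543 to 1.80 RPKM. The summed level of 14 markers of blood, endothelial, stromal, liver and fat cells was 0.831 to 2.48 RPKM in control libraries and 0.578 to 3.09 RPKM in AURKA libraries. In bulk RNA, fewer cells of a type and less RNA per cell cannot be told apart.

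Genes of cholesterol synthesis were higher in the AURKA clones than in the control lines. Of the 31 genes, 12 rose and none fell at an adjusted p under 0.05 in limma with Benjamini-Hochberg adjustment over all tested genes, where 8.85% of all genes rose and 10.4% fell. They were 3 of 7 mevalonate enzymes (ACAT2, HMGCS1 and IDI1), 6 of 11 sterol enzymes (SQLE, LSS, CYP51A1, MSMO1, NSDHL and DHCR7), 2 of 6 genes of sensing and transport (STARD4 and INSIG1) and 1 of 7 fatty acid enzymes (FADS2). Fold changes are differences of log2(RPKM + 1), which understate the change of low genes. WT-AURKA c2 has no library of A to H and this fit has no letter-set term, so the letter sets enter its fold changes. The median log2 fold change was 0.41 over the 31 genes and -0.02 over all genes, and 27 of the 31 fold changes were above 0. All 6 AURKA line means exceeded all 3 control line means for 14 of the 31 genes against 12.9% of all genes, and lay below them for 0 of 31 against 16%. With libraries I to Z alone the median was again 0.41, and 12 genes rose and 0 fell, where 7.73% of all genes rose and 10.2% fell. Of these, 9 were shared with the full set, ACAT2, SQLE and CYP51A1 were lost, and SREBF2, FASN and ELOVL6 were gained. With A to H alone 2 genes, ACAT2 and NSDHL, rose and 0 fell, where 5.9% of all genes rose and 6.44% fell.

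**Figure D1:**
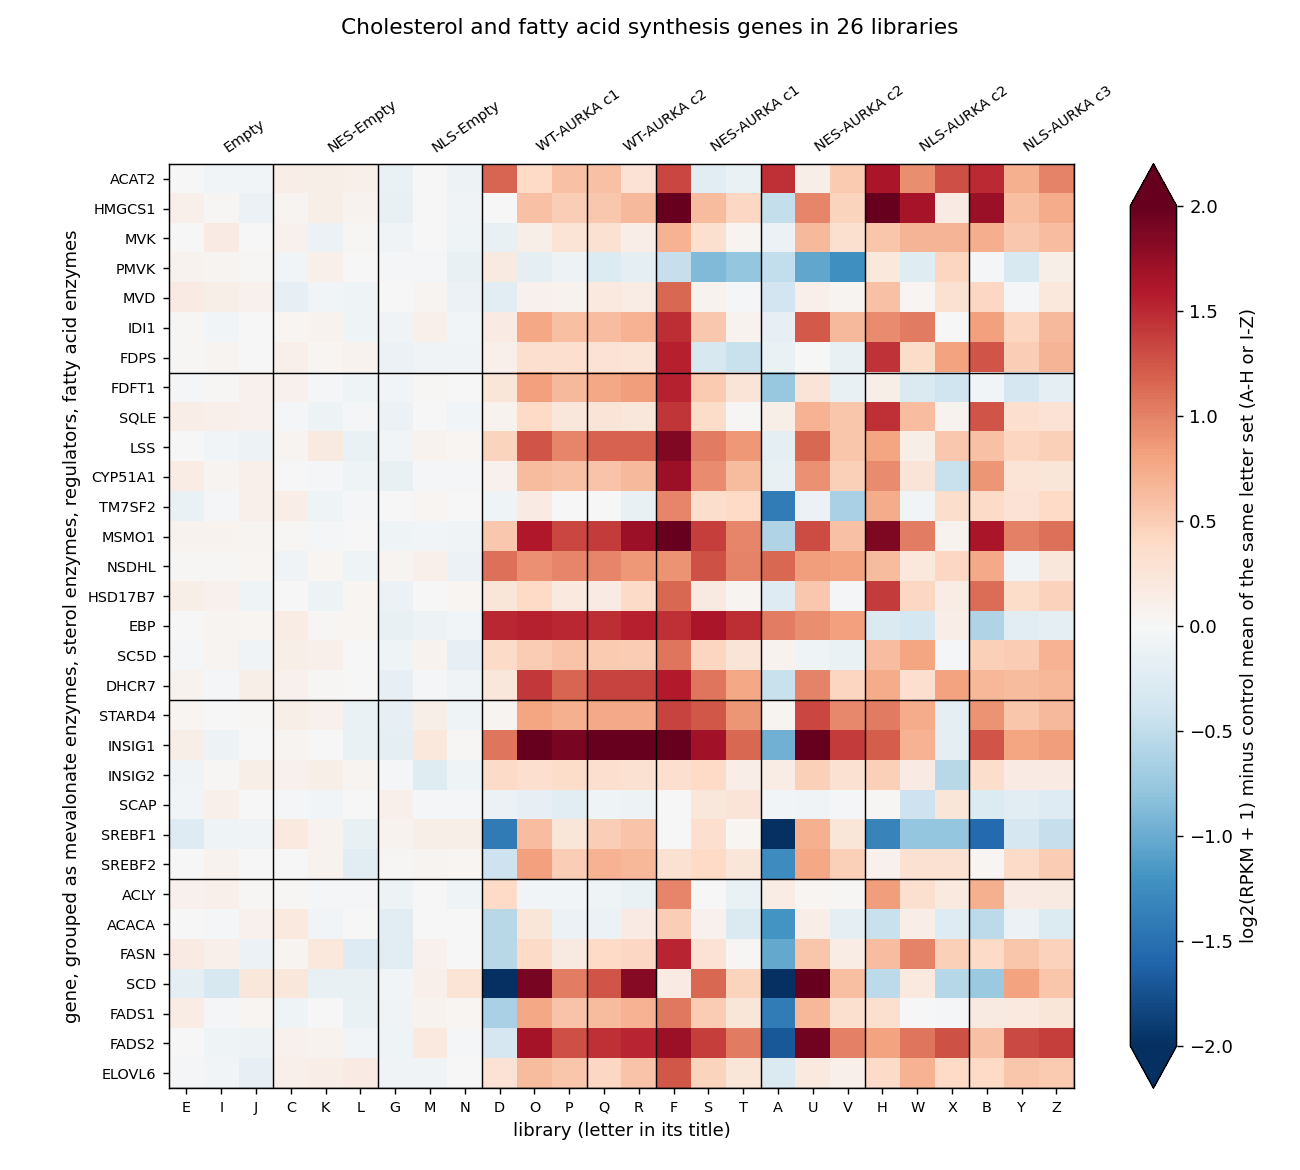
Log2 RPKM + 1 of each of the 31 genes (rows, by role) in each of the 26 libraries (columns, by line), minus the mean of the control libraries of the same letter set. Library F of NES-AURKA c1 is raised across the rows (median 1.25), library A of NES-AURKA c2 is not (median -0.30), and the control libraries lie near 0.

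The libraries did not shift equally. Relative to the control libraries of its own letter set, the median over the 31 genes on the log2(RPKM + 1) scale was 1.25 in library F, 0.63 in H and 0.59 in B, but 0.11 in D and -0.30 in A, while the medians over all tested genes lay between -0.09 and 0.06 in all 26 libraries. In F 29 of 31 genes were above the controls, and in A 8 of 31. The 12 AURKA libraries among I to Z had medians between 0.17 (X) and 0.67 (U), all above 0. Library A was lowest in the fatty acid enzymes, with a median of -1.19, and F was at 1.06 there. This description was added after the data were seen.

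In the mevalonate pathway, the first steps and IDI1 rose. ACAT2, which joins acetyl-CoA units, measured 3.45 at lowest, 10.9 at the median and 12.5 RPKM at highest in the 9 control libraries, against 9.79, 14.2 and 29.3 RPKM in the 17 AURKA libraries. Its log2 fold change was 0.83 (SE 0.18, limma adjusted p = 0.0111), but 0.51 (adjusted p = 0.159) in I to Z, where the control and AURKA ranges overlapped. HMGCS1, the HMG-CoA synthase that commits acetyl-CoA to the pathway, was 4.63, 5.41 and 7.87 RPKM (lowest, median, highest) in control libraries and 4.98, 8.35 and 42.5 RPKM in AURKA libraries. The libraries F, H and B stood far above the rest with 42.5, 40.1 and 26.5 RPKM, and all other AURKA libraries lay at or below 18.2 RPKM. The fold change of HMGCS1 was 0.78 (SE 0.24, limma adjusted p = 0.0465) over all libraries and 0.66 (adjusted p = 0.00300) in I to Z. The call of HMGCS1 was lost without any 1 of the lines Empty, NES-Empty, NLS-Empty, NES-AURKA c1 and NLS-AURKA c3, and without any 1 of the libraries B, F, I, J, K, L, N, O, R, S, T, U, X and Y, and over its 45 alternatives the adjusted p ran from 0.00300 to 0.259.

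IDI1 turns isopentenyl into dimethylallyl diphosphate, and its control lines lay close together. Its level was 12.5 ± 0.117 RPKM in the control lines (mean ± SD, n = 3) and 20.6 ± 1.34 RPKM in the AURKA lines (n = 6). The libraries were 13.8, 22.3 and 19.6 RPKM in WT-AURKA c1, 19.9 and 21.1 RPKM in c2, 35.7, 18.7 and 13.4 RPKM in NES-AURKA c1, and 10.8, 30.9 and 20.4 RPKM in c2. Those of NLS-AURKA were 24.5, 27.0 and 12.6 RPKM in c2 and 22.2, 17.4 and 20.3 RPKM in c3. All 6 clone means were above every control line, although libraries A, T and X fell within the control range of 11.6 to 13.7 RPKM or below it. The change of IDI1 on the log2 scale was 0.62 (SE 0.08, limma adjusted p = 0.000869), and 0.61 (adjusted p = 0.0116) in I to Z.

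The other mevalonate enzymes did not pass. The mevalonate kinase MVK had a log2 fold change of 0.39 (limma adjusted p = 0.0562), FDPS, which makes farnesyl diphosphate, of 0.44 (adjusted p = 0.145), the decarboxylase MVD of 0.17 (adjusted p = 0.347) and the phosphomevalonate kinase PMVK of -0.23 (adjusted p = 0.530). All 6 clones exceeded their matched control for MVK, and 2 of 6 did for PMVK.

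In the sterol pathway MSMO1, an oxidase in the removal of methyl groups from sterols, changed most. It measured 20.9, 21.7 and 21.4 RPKM in Empty, 20.1, 20.2 and 20.7 RPKM in NES-Empty and 18.6, 19.8 and 19.4 RPKM in NLS-Empty. It measured 29.2, 64.3 and 53.1 RPKM in WT-AURKA c1 and 55.6 and 69.1 RPKM in c2, and 145, 55.4 and 41.5 RPKM in NES-AURKA c1 and 12.7, 52.0 and 31.3 RPKM in c2. In NLS-AURKA it was 75.4, 42.7 and 21.6 RPKM in c2 and 63.6, 42.2 and 45.0 RPKM in c3. All control libraries lay within a narrow band, 15 of the 17 AURKA libraries lay clearly above it, X was at its upper end, and A, the first library of NES-AURKA c2, was below it. The line means were 20.3 ± 1.03 RPKM (SD, n = 3) and 53.5 ± 16.5 RPKM (n = 6). The change of MSMO1 on the log2 scale was 1.18 (SE 0.24, limma adjusted p = 0.00835), and 1.12 (adjusted p = 0.00524) in I to Z. It remained called without any 1 line or library.

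NSDHL, a dehydrogenase of the same removal of methyl groups, was 5.17, 9.82 and 10.00 RPKM in Empty, 4.81, 10.00 and 9.03 RPKM in NES-Empty and 5.34, 10.4 and 8.89 RPKM in NLS-Empty, where the first value of each line is its A to H library. WT-AURKA measured 12.2, 19.2 and 20.0 RPKM in c1 and 20.1 and 18.5 RPKM in c2, and NES-AURKA 10.4, 24.8 and 20.3 RPKM in c1 and 12.5, 18.1 and 17.6 RPKM in c2. NLS-AURKA measured 8.47, 11.3 and 13.3 RPKM in c2 and 9.27, 9.19 and 11.6 RPKM in c3. The A to H library was the lowest of its line except in NLS-AURKA c3. Within each letter set the WT and NES libraries were all above the controls, as were the NLS libraries except Y. The log2 fold change of NSDHL over all AURKA lines was 0.82 (SE 0.19, limma adjusted p = 0.0171), and 0.70 (adjusted p = 0.0493) in I to Z and 0.91 (adjusted p = 0.00633) in A to H.

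LSS, which cyclises squalene epoxide into lanosterol, averaged 8.13 ± 0.290 RPKM over the 3 control lines (SD) and 15.7 ± 4.20 RPKM over the 6 AURKA lines, and rose by 0.80 (standard error 0.19, limma adjusted p = 0.0163). Its lowest, median and highest libraries were 7.10, 8.27 and 9.02 RPKM in the controls and 7.53, 15.1 and 33.7 RPKM in the AURKA lines. DHCR7, the reductase of the last step of the pathway, rose by 0.83 (SE 0.19, limma adjusted p = 0.0163), from 13.7, 14.5 and 17.2 RPKM to 11.6, 26.1 and 50.6 RPKM. CYP51A1, the lanosterol demethylase, rose by 0.54 (SE 0.16, limma adjusted p = 0.0439), from 26.7, 29.1 and 33.1 RPKM to 21.5, 44.9 and 99.2 RPKM. SQLE, the squalene epoxidase, rose by 0.49 (SE 0.12, limma adjusted p = 0.0213), from 3.30, 3.99 and 4.44 RPKM to 3.92, 5.35 and 11.8 RPKM. For LSS, DHCR7, CYP51A1 and SQLE the highest library was F or H, and the AURKA range reached down into the control range or below it. In I to Z the change of LSS was 0.81 (limma adjusted p = 0.0178) and that of DHCR7 0.91 (adjusted p = 0.00933), while SQLE had 0.34 and lost its call (adjusted p = 0.0512). The call of CYP51A1 was lost in I to Z (0.48, adjusted p = 0.101), without any 1 of the lines Empty, NES-Empty, NLS-Empty, WT-AURKA c1, WT-AURKA c2 and NLS-AURKA c3, and without any 1 of the libraries B, H, O, P, S, T and U, and over its 45 alternatives the adjusted p ran from 0.0163 to 0.256.

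EBP, the isomerase that moves the double bond of the sterol ring, did not pass, with a log2 fold change of 0.87, a standard error of 0.46 and a limma adjusted p of 0.210. Its constructs differed, as given further on. SC5D, HSD17B7, FDFT1 and TM7SF2 did not pass either, with log2 fold changes of 0.44 (limma adjusted p = 0.0537), 0.41 (adjusted p = 0.0514), 0.27 (adjusted p = 0.519) and 0.08 (adjusted p = 0.852).

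INSIG1, the anchor that keeps SCAP in the endoplasmic reticulum and is itself a target of SREBP, had the largest change of the 31 genes. It measured 26.9, 17.1 and 18.5 RPKM in Empty, 25.6, 18.2 and 16.8 RPKM in NES-Empty and 21.5, 21.3 and 18.7 RPKM in NLS-Empty. In WT-AURKA it was 52.7, 82.0 and 71.5 RPKM in c1 and 81.1 and 81.4 RPKM in c2, in NES-AURKA 108, 60.9 and 42.2 RPKM in c1 and 12.1, 87.8 and 50.3 RPKM in c2, and in NLS-AURKA 58.4, 30.4 and 16.1 RPKM in c2 and 60.3, 32.5 and 33.6 RPKM in c3. Libraries A and X were below all controls and the other 15 AURKA libraries above all of them. The log2 fold change was 1.28 (SE 0.28, limma adjusted p = 0.0119), and 1.40 (adjusted p = 0.0291) in I to Z. STARD4, a carrier of cholesterol between membranes, rose by 0.72 (SE 0.14, limma adjusted p = 0.00605) and in I to Z by 0.77 (adjusted p = 0.0154), with means of 6.63 ± 0.228 RPKM over the 3 control lines (SD) and 12.0 ± 2.27 RPKM over the 6 AURKA lines. Its libraries were 5.35, 6.37 and 8.64 RPKM (lowest, median, highest) in the controls and 5.05, 10.8 and 21.7 RPKM in the AURKA lines.

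Over all libraries the genes of the factors themselves moved less than INSIG1 and STARD4, and their changes differed between the letter sets. SREBF2 was 20.7, 13.5 and 12.7 RPKM in Empty, 20.9, 13.4 and 10.9 RPKM in NES-Empty and 21.2, 13.2 and 13.1 RPKM in NLS-Empty, and among the AURKA libraries lowest 8.16, median 18.4 and highest 26.1 RPKM. Within I to Z every AURKA library exceeded every control library of SREBF2, and the log2 fold change was 0.50 (limma adjusted p = 0.0154). Over all libraries it was 0.27 (SE 0.10, adjusted p = 0.0995), and in A to H -0.25. SREBF1 split by letter set in the controls, with 22.7, 31.4 and 28.7 RPKM in E, C and G and 6.89 to 8.50 RPKM in the control libraries of I to Z. Its log2 fold change was -0.40 (SE 0.23, limma adjusted p = 0.244) over all libraries, 0.07 (adjusted p = 0.882) in I to Z and -1.40 (adjusted p = 0.0841) in A to H. INSIG2, another SCAP anchor, had a fold change of 0.27 (adjusted p = 0.0879) and SCAP of -0.05 (adjusted p = 0.734).

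**Figure D2:**
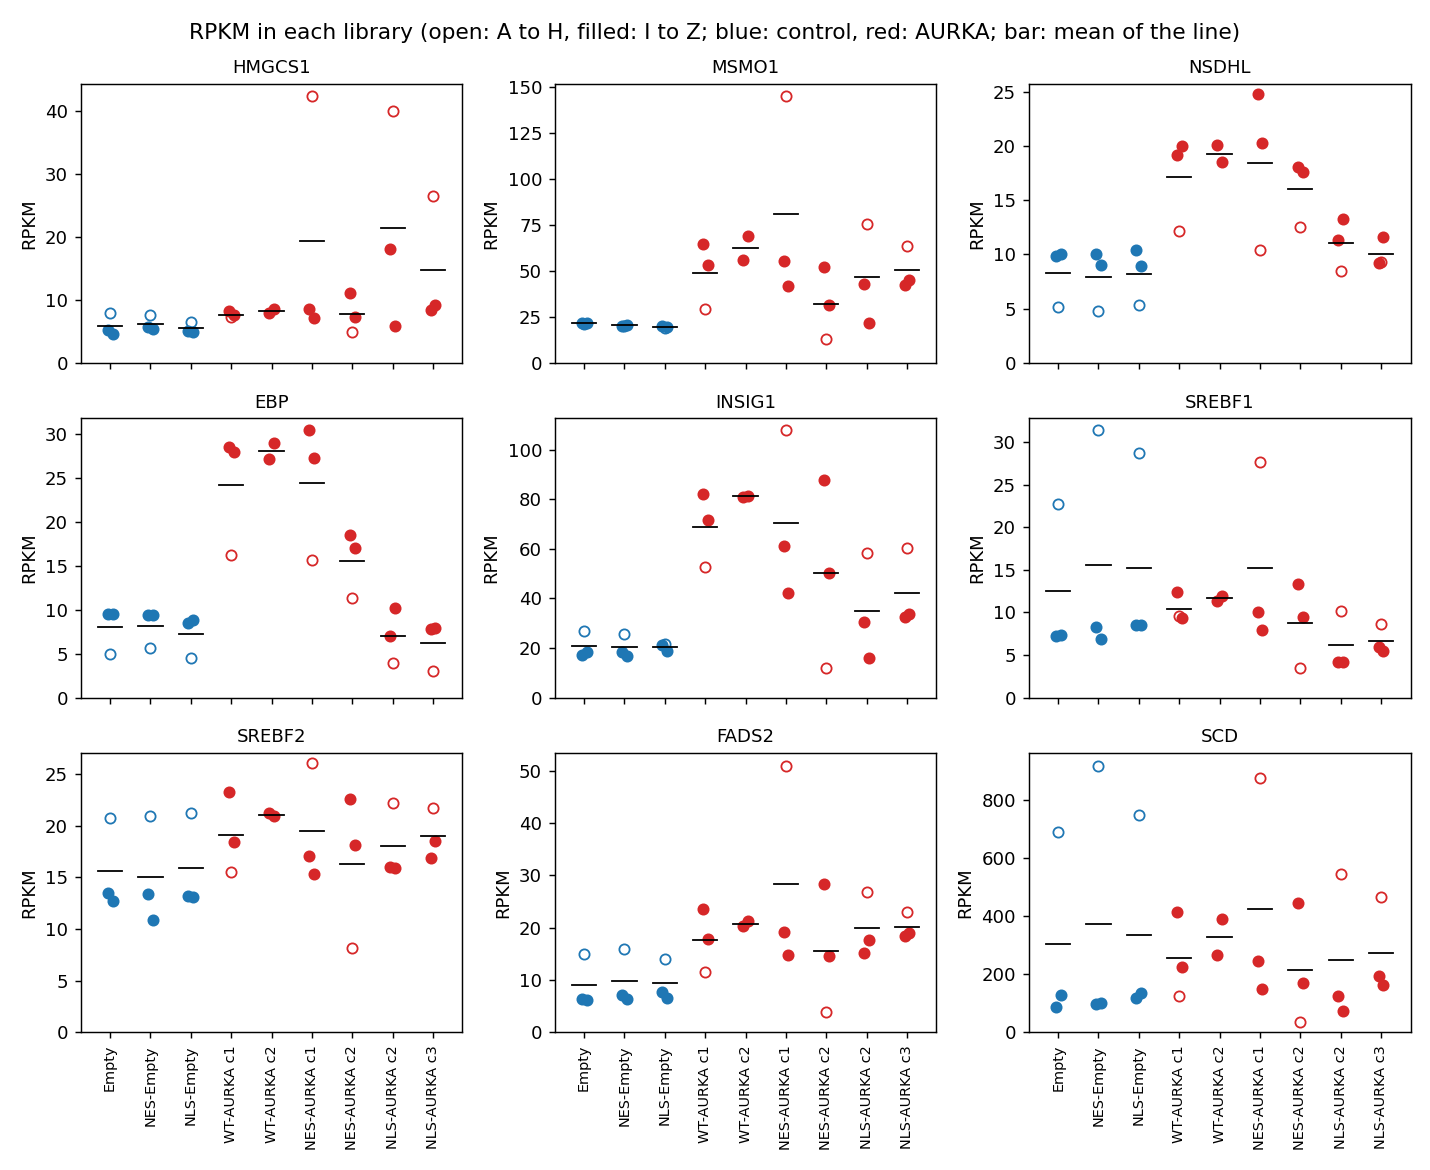
RPKM on a linear axis of HMGCS1, MSMO1, NSDHL, EBP, INSIG1, SREBF1, SREBF2, FADS2 and SCD in each of the 9 lines, with 1 point per library, libraries A to H and I to Z marked apart, and the mean of each line. EBP is low in the NLS-AURKA lines and high in the WT and NES lines, and SCD and SREBF1 of the control lines split by letter set.

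Among the fatty acid enzymes FADS2, a desaturase of polyunsaturated fatty acids, was the 1 that rose over all libraries. It measured 14.9, 6.31 and 6.19 RPKM in Empty, 16.0, 7.07 and 6.48 RPKM in NES-Empty and 14.0, 7.81 and 6.61 RPKM in NLS-Empty. It measured 11.6, 23.5 and 17.9 RPKM in WT-AURKA c1, 20.3 and 21.3 RPKM in c2, 51.0, 19.2 and 14.9 RPKM in NES-AURKA c1 and 3.92, 28.4 and 14.6 RPKM in c2. In NLS-AURKA it was 26.9, 15.2 and 17.7 RPKM in c2 and 23.0, 18.4 and 19.1 RPKM in c3. Within I to Z the lowest AURKA library of FADS2 was above the highest control library, and in A to H libraries D and A were below the controls. The log2 fold change was 0.99 (SE 0.18, limma adjusted p = 0.00479) over all libraries, 1.36 (adjusted p = 7.03e-05) in I to Z and 0.21 (adjusted p = 0.851) in A to H. The call of FADS2 was lost without library U of NES-AURKA c2 and was made without any other single line or library. It was also lost with a term for the letter set and the line as a random block (1.00, adjusted p = 0.0517).

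SCD, the stearoyl-CoA desaturase, was the most abundant of the 31 genes per length, at a mean of 305.9 RPKM over the 9 lines, followed by the ATP citrate lyase ACLY at 69.2 RPKM. The control libraries of SCD were 690.2, 916 and 749 RPKM in E, C and G but 88.0 to 134 RPKM in I to Z, and the AURKA libraries ran from 36.6 RPKM in A to 875 RPKM in F. Its log2 fold change was 0.10 (SE 0.25, limma adjusted p = 0.810) over all libraries, 0.93 (adjusted p = 0.0836) in I to Z and -1.62 (adjusted p = 0.265) in A to H. The fatty acid synthase FASN had 0.25 (limma adjusted p = 0.429) and in I to Z 0.41 (adjusted p = 0.0452), and the elongase ELOVL6 0.40 (adjusted p = 0.0679) and in I to Z 0.44 (adjusted p = 0.0281). FADS1 had 0.24 (adjusted p = 0.280), ACLY 0.21 (adjusted p = 0.238) and the acetyl-CoA carboxylase ACACA -0.22 (adjusted p = 0.216).

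**Figure D3:**
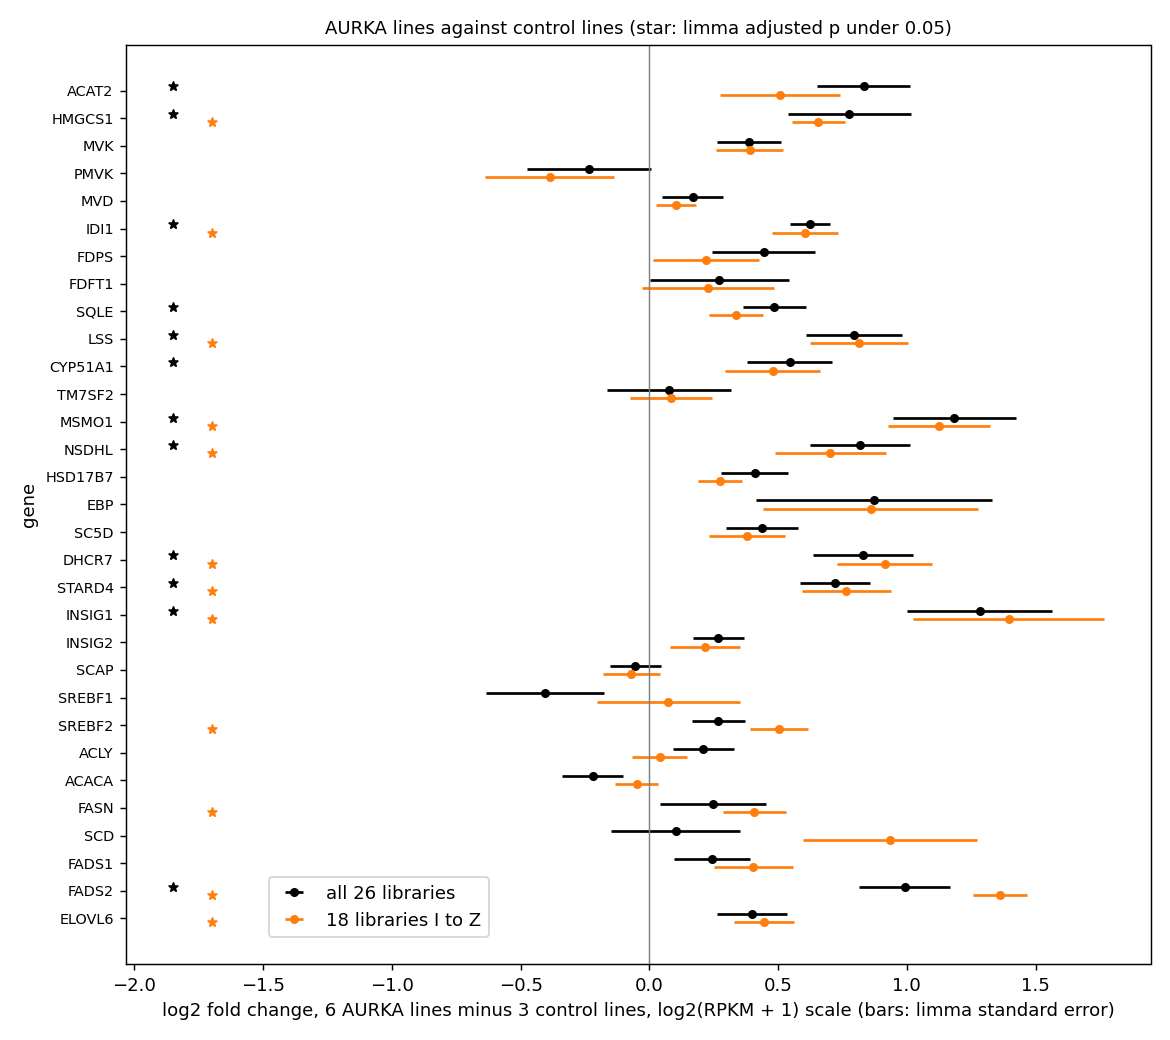
Log2 fold change of each of the 31 genes, 6 AURKA lines against 3 control lines, with its standard error, over all libraries and over libraries I to Z, by role. Stars mark an adjusted p under 0.05; 12 genes are marked in each analysis, and no fold change below 0 is marked.

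The count of 12 changed with the lines used. Without Empty 4 genes were called, without NES-Empty 5 and without NLS-Empty 4, and without NES-AURKA c2, the clone of library A, 17. The share of all genes called without a line is not given, so these counts are not read as particular to these genes. Without Empty or NLS-Empty the calls of ACAT2, HMGCS1, SQLE, LSS, CYP51A1, NSDHL, DHCR7 and INSIG1 were lost, and without NES-Empty those of HMGCS1, SQLE, LSS, CYP51A1, NSDHL, DHCR7 and INSIG1. IDI1, MSMO1 and STARD4 were called whichever line or library was left out. In a limma fit of all 26 libraries with a term for the letter set and the line as a random block, 11 genes rose and 0 fell, against 12.6% and 15% of all genes. Of the 12, this fit shared 7 and lost IDI1 (0.62, adjusted p = 0.0509), FADS2, CYP51A1 (0.55, adjusted p = 0.0829), SQLE (0.50, adjusted p = 0.0881) and HMGCS1 (0.82, adjusted p = 0.0926). It gained EBP (0.81, limma adjusted p = 0.0290), SC5D (0.43, adjusted p = 0.0321), ELOVL6 (0.43, adjusted p = 0.0335) and MVK (0.37, adjusted p = 0.0453).

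The letter sets also differed in some of these genes, in a smaller share than among all genes. Over the 8 lines with libraries of both sets, 5 of the 31 genes were higher in A to H and 6 lower in a paired limma fit, where 26.6% of all genes were higher and 39% lower. FASN, ACACA and ELOVL6 were higher in A to H in all 8 lines, with log2 differences of 1.64, 0.94 and 0.64, and HMGCS1 (0.76) and SREBF1 (0.83) in 6 of 8. PMVK, EBP, NSDHL and SCAP were lower in A to H in all 8 lines, with -1.05, -0.82, -0.65 and -0.38, and ACAT2 (-0.80) and MVK (-0.39) in 7 of 8. SCD had a difference of 1.29 that did not pass (limma adjusted p = 0.0920). A difference of the AURKA effect between the sets, added as a test after the data were seen, passed for 0 of the 31 genes and 23 of all genes (0.183%), and its smallest adjusted p among the 31 was 0.204, for ACAT2. Without NES-AURKA c2, the line of library A, 18 of the 31 genes differed between the sets in place of 11. The share of all genes that did so is not given, so this rise is not read as particular to these genes. The calls of HMGCS1 and SREBF1 were each lost without any 1 of 6 lines (Empty, NES-Empty, NLS-Empty, NES-AURKA c1, NLS-AURKA c2 and NLS-AURKA c3). The labels do not say what separates the sets.

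**Figure D4:**
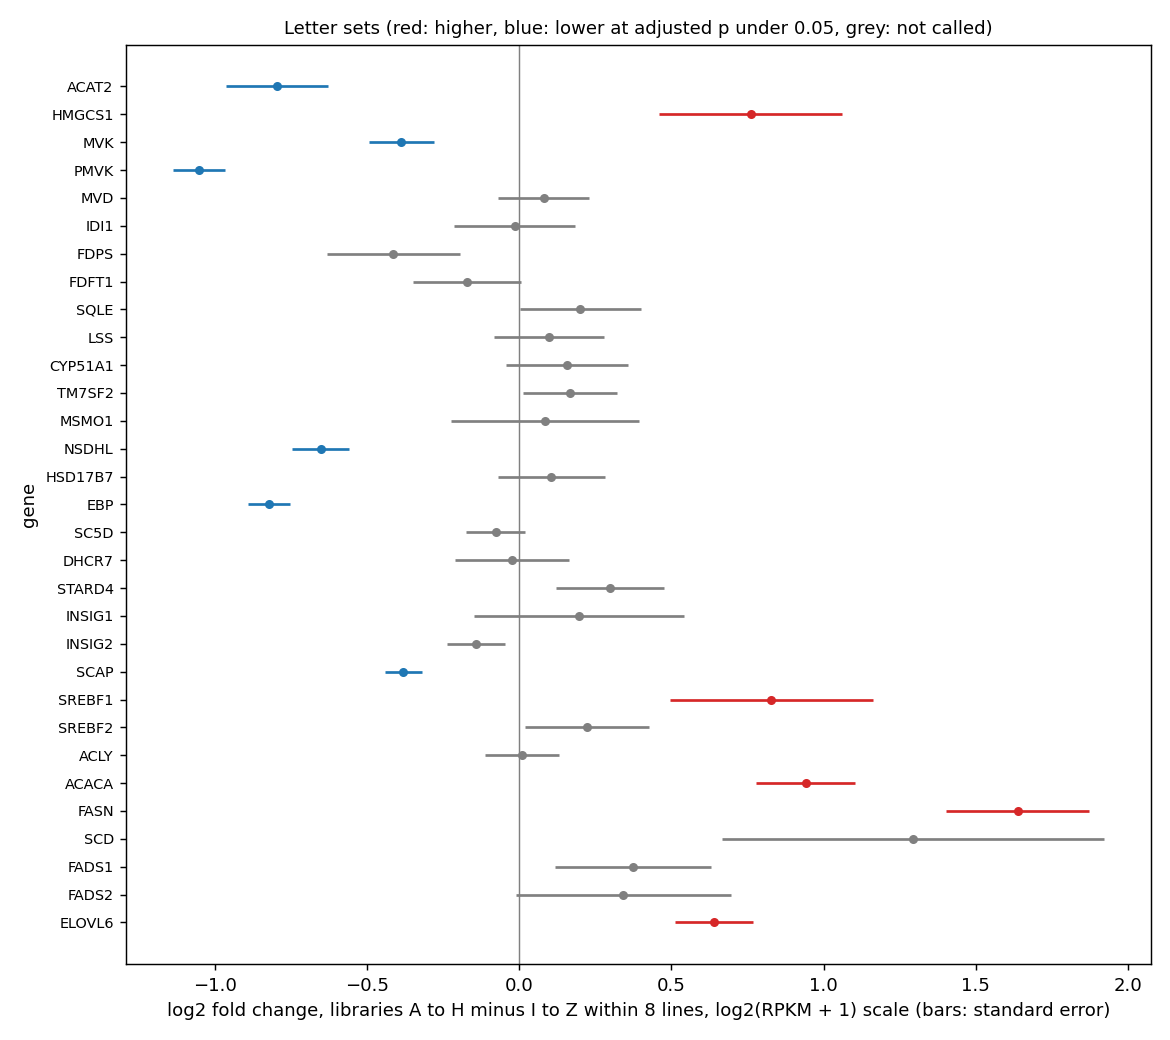
Log2 difference between libraries A to H and I to Z of the same line, over 8 lines, for each of the 31 genes, with its standard error. FASN lies highest at 1.64 and PMVK lowest at -1.05.

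Sequences before the transcription start are shown for SREBF2, which held the 1 exact match to the sterol regulatory element searched for. They are also shown for MSMO1 and INSIG1, which changed most against the controls, and for NSDHL and EBP. NSDHL and EBP were lower in NLS-AURKA than in both other constructs, as was SREBF1, which is not shown. RefSeq promoter windows of build GRCh38.p14, from 250 bases before to 50 after a start, were present for 27 of the 31 genes, and not for ACAT2, FDFT1, SQLE and FASN. The element TCACNCCAC, bound by SREBP, was searched on both strands and stood in 1 of 27 genes, SREBF2 (3.7%), against 1.39% of 27305 genes. A stricter form that overlaps it, printed as the first run of capitals in the SREBF2 line, stood in SREBF2 and in 0.0586% of the 27305 genes. The box CCAAT, bound by NF-Y, stood in 20 of 27 genes (74.1%) against 39.7% of the 27305 genes, which were not limited to the genes tested. A match describes letters and shows no binding. Only exact matches within the windows were searched, so a gene without a match is not shown to lack an element. The 200 bases before each start follow, 5′ to 3′ on the plus strand, with matches in capitals (ATTGG is CCAAT on the other strand), at chr22:41832905-41833104 for SREBF2, chr4:165327469-165327668 for MSMO1, chr7:155297678-155297877 for INSIG1, chrX:152830863-152831062 for NSDHL and chrX:48521608-48521807 for EBP.
SREBF2: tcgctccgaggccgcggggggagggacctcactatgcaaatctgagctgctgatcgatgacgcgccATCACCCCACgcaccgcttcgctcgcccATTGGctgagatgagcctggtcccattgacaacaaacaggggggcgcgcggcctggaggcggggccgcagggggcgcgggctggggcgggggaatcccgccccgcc
MSMO1: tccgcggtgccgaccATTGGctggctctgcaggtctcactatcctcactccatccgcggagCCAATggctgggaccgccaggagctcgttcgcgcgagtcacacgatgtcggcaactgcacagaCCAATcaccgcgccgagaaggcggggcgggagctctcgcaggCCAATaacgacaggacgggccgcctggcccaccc
INSIG1: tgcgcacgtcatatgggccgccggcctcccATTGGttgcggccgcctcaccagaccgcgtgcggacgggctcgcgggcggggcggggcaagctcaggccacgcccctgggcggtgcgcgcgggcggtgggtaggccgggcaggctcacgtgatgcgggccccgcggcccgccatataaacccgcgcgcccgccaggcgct
NSDHL: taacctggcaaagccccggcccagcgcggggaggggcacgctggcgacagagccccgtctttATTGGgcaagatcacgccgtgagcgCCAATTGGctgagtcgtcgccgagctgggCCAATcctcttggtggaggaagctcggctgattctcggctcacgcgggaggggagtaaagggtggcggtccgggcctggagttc
EBP: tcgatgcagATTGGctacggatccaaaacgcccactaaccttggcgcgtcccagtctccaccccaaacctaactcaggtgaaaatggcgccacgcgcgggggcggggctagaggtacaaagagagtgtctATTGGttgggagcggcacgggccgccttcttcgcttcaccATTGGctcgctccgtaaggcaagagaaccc

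The MSMO1 and NSDHL windows each held 4 CCAAT boxes in these 200 bases, EBP held 3 and INSIG1 held 1. In SREBF2 the run of capitals of the stricter form began 134 bases before the start, the element within it 133 bases before it, and a CCAAT box 106 bases before it.

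The constructs were then set beside the controls. The 3 comparisons share the control lines, so their values are only given side by side. WT-AURKA c2 has no library of A to H, and the fit of constructs has no letter-set term. The letter sets therefore enter every comparison with WT-AURKA, here and below, as they do the fit of all AURKA lines against the controls. In WT-AURKA 17 of the 31 genes rose and 0 fell (18.7% and 18.6% of all genes), in NES-AURKA 15 rose and 1 fell (14.8% and 19.2%), and in NLS-AURKA 17 rose and 1 fell (21.4% and 20.5%). For MSMO1 the log2 fold changes were 1.36 in WT, 1.08 in NES and 1.12 in NLS, for IDI1 0.59, 0.63 and 0.65, and for FADS2 1.01, 0.90 and 1.07. For EBP they were 1.64, 1.23 and -0.25, for INSIG1 1.82, 1.26 and 0.77, and for FDFT1 0.73, 0.28 and -0.19. The 1 gene that fell in NES was PMVK (0.08, -0.81 and 0.03) and the 1 that fell in NLS was SREBF1 (-0.12, -0.22 and -0.87). With I to Z alone 22 rose and 0 fell in WT (17.4% and 21.9% of all genes), 16 rose and 1 fell in NES (16.2% and 20.7%), and 16 rose and 2 fell in NLS (20.3% and 23.4%). There SREBF1 was at 0.47 in WT (limma adjusted p = 0.0215), the opposite sign and a call, at 0.33 in NES (adjusted p = 0.0837) and at -0.58 in NLS (adjusted p = 0.00779). The other gene that fell in NLS in I to Z was FDFT1 (-0.30, limma adjusted p = 0.0495).

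**Figure D5:**
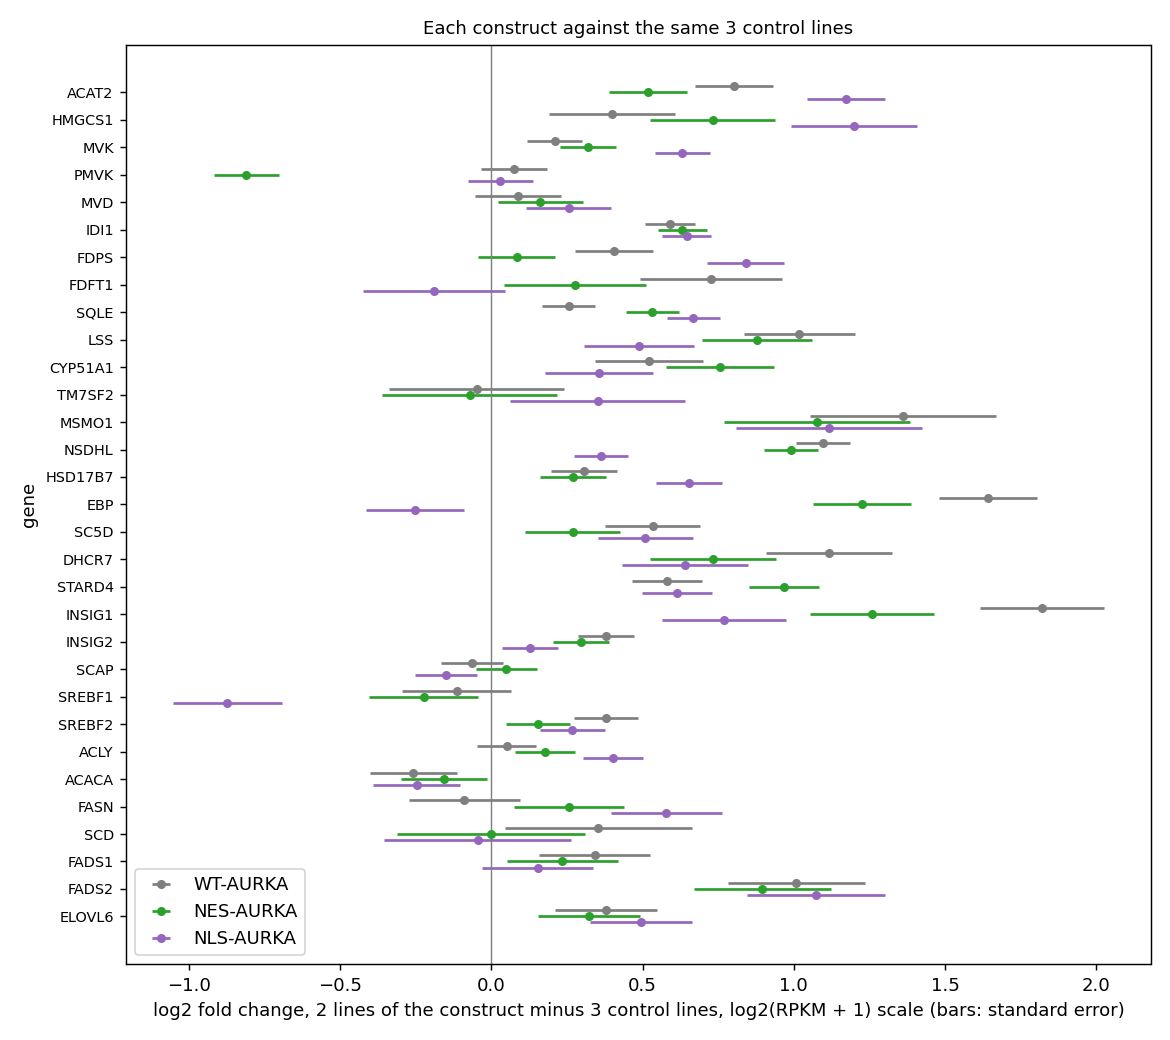
Log2 fold change of each of the 31 genes in WT-AURKA, NES-AURKA and NLS-AURKA (2 clones each) against the same 3 control lines, with standard errors. EBP lies at 1.64 and 1.23 in WT and NES and at -0.25 in NLS, PMVK at -0.81 in NES, and SREBF1 at -0.87 in NLS.

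Between NLS-AURKA and NES-AURKA, 4 of 7 mevalonate enzymes were higher with the NLS, and 1 of 11 sterol enzymes was higher and 2 were lower. In all 5 of the 31 genes were higher in NLS and 3 lower, where 19.1% of all genes were higher and 14.1% lower, so the share was no larger than among all genes. The median log2 difference was 0.04 over the 31 genes and 0.05 over all genes. The higher genes were ACAT2, MVK, PMVK, FDPS and HSD17B7, and the lower ones NSDHL, EBP and SREBF1. The guide and the MUT label differed with the signal and cannot be told apart from it.

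EBP differed most. Its libraries were 5.00, 9.57 and 9.50 RPKM in Empty, 5.68, 9.37 and 9.43 RPKM in NES-Empty and 4.47, 8.49 and 8.84 RPKM in NLS-Empty. It measured 16.2, 28.6 and 28.0 RPKM in WT-AURKA c1, 27.3 and 28.99 RPKM in c2, 15.7, 30.5 and 27.3 RPKM in NES-AURKA c1 and 11.3, 18.5 and 17.1 RPKM in c2. In NLS-AURKA it was 3.95, 7.01 and 10.2 RPKM in c2 and 2.98, 7.78 and 7.89 RPKM in c3. Within each letter set all WT and NES libraries lay above the controls, and the NLS libraries lay below them except for X. The log2 difference of EBP between NLS and NES was -1.48 (SE 0.18, limma adjusted p = 0.000494), with -1.37 (adjusted p = 0.000633) in I to Z and -1.69 (adjusted p = 0.0149) in A to H. NSDHL, given by library above, differed by -0.63 (SE 0.10, limma adjusted p = 0.00162), with -0.78 (adjusted p = 0.00134) in I to Z and -0.33 (adjusted p = 0.174) in A to H.

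PMVK was 9.53, 23.7 and 23.2 RPKM in Empty, 8.68, 24.3 and 22.6 RPKM in NES-Empty and 8.88, 22.2 and 20.3 RPKM in NLS-Empty. It was 10.4, 19.8 and 21.2 RPKM in WT-AURKA c1, 18.6 and 19.9 RPKM in c2, 6.29, 11.9 and 12.8 RPKM in NES-AURKA c1 and 6.13, 10.5 and 9.16 RPKM in c2, and 10.6, 19.1 and 31.1 RPKM in NLS-AURKA c2 and 8.81, 18.1 and 24.6 RPKM in c3. Within each letter set the NES-AURKA libraries were the lowest of all. The log2 difference of PMVK between NLS and NES was 0.84 (SE 0.12, limma adjusted p = 0.00104), with 0.98 (adjusted p = 0.000492) in I to Z and 0.57 (adjusted p = 0.0484) in A to H. EBP and PMVK were called in all 44 alternatives tried.

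FDPS was 27.1, 24.7, 34.0 and 30.6 RPKM in the NES-AURKA libraries S, T, U and V and 44.2, 60.4, 48.3 and 55.2 RPKM in the NLS-AURKA libraries W, X, Y and Z. These ranges did not overlap, whereas in A to H library F reached 58.0 RPKM against 53.4 and 46.8 RPKM in H and B. The log2 difference of FDPS was 0.76 (SE 0.14, limma adjusted p = 0.00373), with 0.82 (adjusted p = 0.000735) in I to Z and 0.64 (adjusted p = 0.453) in A to H. ACAT2 was 9.79, 10.4, 12.6 and 16.9 RPKM in S, T, U and V and 22.7, 29.3, 19.3 and 23.6 RPKM in W, X, Y and Z, again without overlap. Its difference was 0.65 (SE 0.14, limma adjusted p = 0.00747), and it was lost in A to H (0.17, adjusted p = 0.487), without NLS-AURKA c2 and without library C. MVK (0.31, limma adjusted p = 0.0401) and HSD17B7 (0.38, adjusted p = 0.0356) were not called in I to Z, where their adjusted p-values were 0.0653 and 0.183. MVK was lost in 24 and HSD17B7 in 20 of 43 alternatives, over which the adjusted p ran from 0.00905 to 0.432 and from 0.00123 to 0.263.

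SREBF1 was 10.1, 7.99, 13.4 and 9.41 RPKM in the NES-AURKA libraries S, T, U and V, 12.4, 9.34, 11.3 and 12.0 RPKM in the WT-AURKA libraries O, P, Q and R, and 4.13, 4.16, 5.96 and 5.41 RPKM in the NLS-AURKA libraries W, X, Y and Z. The NLS libraries were thus below all others of I to Z, including the controls. In A to H library A had 3.44 RPKM, F 27.6 RPKM and H and B 10.2 and 8.62 RPKM. The log2 difference of SREBF1 between NLS and NES was -0.65 (SE 0.20, limma adjusted p = 0.0324), with -0.91 (adjusted p = 0.00162) in I to Z and -0.12 (adjusted p = 0.942) in A to H. It was lost in 20 of 44 alternatives, among them without any 1 of the lines NES-Empty, WT-AURKA c1, WT-AURKA c2, NES-AURKA c1, NLS-AURKA c2 and NLS-AURKA c3 and the libraries C, E, G, L, M, N, U, V, W, X and Z.

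With I to Z alone 4 genes were higher and 10 lower in NLS than in NES, against 20.5% and 18.8% of all genes. Besides EBP, NSDHL and SREBF1, the lower genes were INSIG1 (-1.07, limma adjusted p = 0.00225), SCD (-0.80, adjusted p = 0.0405), CYP51A1 (-0.67, adjusted p = 0.00279), STARD4 (-0.67, adjusted p = 0.00193), FDFT1 (-0.52, adjusted p = 0.00846), LSS (-0.51, adjusted p = 0.00267) and FADS1 (-0.34, adjusted p = 0.0296). FASN was higher by 0.36 (adjusted p = 0.0289). With A to H alone 1 was higher and 1 lower, against 6.34% and 1.87%. The count of 8 over all libraries went to 15 without NES-AURKA c1 and to 15 without NES-AURKA c2. It went to 4 without NLS-AURKA c2 and to 5 without NLS-AURKA c3 or NES-Empty. It went to 13 without library F, to 4 without C and to 5 without E. For these leave-out fits the share of all genes is not given, so the changes are not read as particular to these genes.

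Between NLS-AURKA and WT-AURKA 7 of the 31 genes were higher in NLS and 5 lower, where 18.7% and 17.4% of all genes were. EBP was again lower, by -1.89 (SE 0.18, limma adjusted p = 0.000130), with -1.67 (adjusted p = 0.000251) in I to Z and -1.96 (adjusted p = 0.0262) in A to H. NSDHL differed by -0.74 (SE 0.10, limma adjusted p = 0.000669), with -0.74 (adjusted p = 0.00163) in I to Z. INSIG1, listed by library above, was 30.4 RPKM in W, 16.1 in X, 32.5 in Y and 33.6 in Z of NLS-AURKA and 71.5 to 82.0 RPKM in the WT-AURKA libraries of I to Z, which did not overlap. Its log2 difference was -1.05 (SE 0.22, limma adjusted p = 0.00649), -1.51 (adjusted p = 0.000435) in I to Z and 0.17 (adjusted p = 0.945) in A to H, where WT-AURKA has library D alone.

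FDFT1, the squalene synthase of the first step toward sterols, was 15.1, 13.9, 14.7 and 16.4 RPKM in W, X, Y and Z and 33.8, 30.0, 32.7 and 34.1 RPKM in O, P, Q and R. All 4 NLS libraries were below all 4 WT libraries, and the log2 difference was -0.92 (SE 0.26, limma adjusted p = 0.0220), with -1.07 (adjusted p = 0.000279) in I to Z and -0.22 (adjusted p = 0.903) in A to H. SREBF1 differed by -0.76 (limma adjusted p = 0.0162), with -1.06 (adjusted p = 0.000760) in I to Z and -0.034 (adjusted p = 0.987) in A to H. The genes higher in NLS were HMGCS1 (0.80, limma adjusted p = 0.0234), FASN (0.67, adjusted p = 0.0289), FDPS (0.43, adjusted p = 0.0391), MVK (0.42, adjusted p = 0.0108), SQLE (0.41, adjusted p = 0.0101), ACLY (0.35, adjusted p = 0.0308) and HSD17B7 (0.35, adjusted p = 0.0491). A limma fit with a letter-set term and the line as a random block lost HMGCS1 (adjusted p = 0.11), FASN (0.206) and FDPS (0.0634). It also lost SQLE (adjusted p = 0.132), HSD17B7 (0.164) and SREBF1 (0.052), and kept MVK, ACLY, NSDHL, EBP, INSIG1 and FDFT1. In I to Z 3 genes were higher, MVK, ACLY and ACAT2, and 12 lower, against 21.2% and 18.9% of all genes, and HMGCS1 (0.23, adjusted p = 0.131) and SQLE (0.05, adjusted p = 0.80) were not among them. In A to H 0 were higher and 1 was lower, against 1.74% and 1.65%.

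The count of 12 went to 6 without WT-AURKA c1, 5 without WT-AURKA c2, 2 without NLS-AURKA c2 and 6 without NLS-AURKA c3. It went to 7 without library C, E, H or S, 5 without T and 6 without U. Here too the share of all genes is not given, so these counts are not read as particular to these genes. EBP was called in all 44 alternatives and NSDHL in all but A to H alone, while HSD17B7 was lost in 29 of 43, FDPS in 23, FASN in 20, ACLY in 18, HMGCS1 in 12, SREBF1 in 9, FDFT1 in 7 and SQLE in 6 of 44. INSIG1 was lost without WT-AURKA c2, NLS-AURKA c2 or library U, and MVK without WT-AURKA c1, NLS-AURKA c2 or NLS-AURKA c3. SQLE was lost without NLS-AURKA c2, H or B, and HMGCS1 without WT-AURKA c1, WT-AURKA c2, NLS-AURKA c2, B, H, S, T or U. SREBF1 was lost without WT-AURKA c2, NLS-AURKA c2, C, E, T or U, and FDFT1 without WT-AURKA c2, NLS-AURKA c2, NLS-AURKA c3, T or U.

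Between NES-AURKA and WT-AURKA 0 of the 31 genes were higher and 1, PMVK, was lower, where 1.56% and 3.3% of all genes were. PMVK differed by -0.89 (SE 0.12, limma adjusted p = 0.00963), with -0.79 (adjusted p = 0.0141) in I to Z and -0.66 (adjusted p = 0.280) in A to H. At an unadjusted p under 0.05, 2 of the 31 genes were higher and 4 lower. No share of all genes at that threshold is given, so these counts are not read as particular to the 31 genes. In I to Z the lower genes were PMVK, FDPS (-0.54, limma adjusted p = 0.0324), FDFT1 (-0.55, adjusted p = 0.0373) and DHCR7 (-0.51, adjusted p = 0.0262), and 0 were higher, against 2.84% and 2.27% of all genes. In A to H limma called 0 of the 31 genes and 0% of all genes. The count went to 0 without WT-AURKA c2, C or E, to 15 without NES-AURKA c1 and to 8 without NES-AURKA c2. It went to 3 without F and to 2 without A or D. As the share of all genes in these leave-out fits is not given, these changes are not read as particular to these genes.

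Each clone was also compared with the control line of its signal, with its libraries as the replicates and a call needing an adjusted p under 0.05 and a log2 fold change of 1 or more in either direction. These p-values measure only the spread between libraries of a line, so they do not extend to other clones of a construct. Shares of all genes called are given as higher and lower. NES-AURKA c1 had 8 of the 31 genes higher (2.48% and 1.95% of all genes), namely MSMO1 (1.72), INSIG1 (1.67), EBP (1.45), LSS (1.22), CYP51A1 (1.14), STARD4 (1.13), DHCR7 (1.10) and NSDHL (1.09). WT-AURKA c2 had 5 (2.05% and 1.14%), INSIG1 (1.94), EBP (1.74), DHCR7 (1.25), LSS (1.19) and NSDHL (1.17), and WT-AURKA c1 had 2 (2.26% and 1.28%), INSIG1 (1.68) and EBP (1.49). NLS-AURKA c2 had 1 (3.07% and 2.68%), ACAT2 (1.36). NES-AURKA c2 had 0 by limma (1.06% and 1.77%), and so did NLS-AURKA c3 (2.76% and 2.38%). None of the 31 was called lower in any clone. WT-AURKA c2 has only libraries of I to Z, while its control Empty includes library E. With the letter set as a term the calls went from 16 to 20, against 2.8%, 1.32%, 3.42%, 3.11%, 2.61% and 2.29% of all genes called higher in NES-AURKA c1 and c2, NLS-AURKA c2 and c3, and WT-AURKA c1 and c2. The added calls were FADS2 in NES-AURKA c1 (1.34, limma adjusted p = 0.0429), HMGCS1 in NLS-AURKA c2 (1.45, adjusted p = 0.0167), ACAT2 and MSMO1 in NLS-AURKA c3 (1.14 and 1.32, adjusted p = 0.00122 and 0.0296) and MSMO1 in WT-AURKA c2 (1.52, adjusted p = 0.0352). NSDHL in WT-AURKA c2, at 0.95, no longer reached a fold change of 1.

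With I to Z alone the calls went from 16 to 29, and FADS2 was higher in all 6 clones, with log2 fold changes of 1.20 and 1.46 in NES-AURKA c1 and c2, 1.09 and 1.27 in NLS-AURKA c2 and c3, and 1.57 and 1.59 in WT-AURKA c1 and c2. The counts of higher genes were 6, 4, 2, 2, 7 and 7 in that order of clones, against 3.82%, 1.67%, 3.78%, 3.1%, 2.86% and 2.61% of all genes. The 1 call in the other direction was PMVK in NES-AURKA c2 (-1.17), where 2.46%, 2.35%, 3.85%, 2.93%, 1.73% and 2.01% of all genes were lower in the 6 clones in the same order. On the means alone, 16 of the 31 genes were above the matched control in all 6 clones, against 16.4% of all genes, and 15 in I to Z, against 15.3%.

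Clones of 1 construct differed. The median log2 difference of the 31 genes between NES-AURKA c1 and c2 was 0.59, against 0.04 over all genes. This difference includes library F in c1 and library A in c2, and over I to Z alone, a description added after the data were seen, the median was -0.097, against 0.07 over all genes. Against NES-Empty in I to Z the medians were 0.30 in c1 and 0.52 in c2. Every library of c1 lay above every library of c2 for FDFT1, TM7SF2 and SC5D (10.4% of all genes did so) and below for ACAT2 (6.43%). TM7SF2, a sterol reductase, was 5.86, 2.98 and 3.08 RPKM in c1 and 0.314, 1.87 and 0.978 RPKM in c2. FDFT1 was 47.8, 27.4 and 22.6 RPKM in c1 and 8.90, 22.5 and 16.7 RPKM in c2, so that the closest libraries, T and U, were nearly equal. The WT-AURKA clones differed by a median of 0.18 (c2 above c1, all genes -0.01), with 2 genes above without overlap, MVD and SCAP, and 1 below, ACLY (3.72% and 6.83%). The c2 clone has no library of A to H, whereas c1 includes D, and over I to Z the median difference was -0.0025. In I to Z the log2 fold changes of c1 and c2 against Empty were 2.04 and 2.13 for INSIG1, 1.40 and 1.48 for MSMO1 and 1.25 and 1.31 for DHCR7. The NLS-AURKA clones differed by a median of 0.00, with 0 genes apart in either direction (1.37% and 1.72%).

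Genes around the pathway, from lists chosen by function, were counted in the same way between AURKA and control lines, where 8.85% of all genes rose and 10.4% fell. Of 7 genes that process SREBP or degrade sterol-sensing proteins 0 rose and 3 fell, with a median of -0.36: the site-1 protease MBTPS1 by -0.36 (limma adjusted p = 0.0453), the ubiquitin ligase RNF139 by -0.36 (adjusted p = 0.0484) and ERLIN1 by -0.36 (adjusted p = 0.0353). Of 10 genes of uptake, trafficking and storage 0 rose and 1 fell, NPC1, which exports cholesterol from lysosomes, by -0.71 (limma adjusted p = 0.00779). None of 9 genes of the isoprenoid branch and none of 6 genes of the LXR efflux list passed in limma, and at an unadjusted p under 0.05 each list had 0 higher and 1 lower. The share of all genes at the unadjusted threshold is not given. Of 17 other genes of fatty acid synthesis tested out of 20 listed, 1 rose, the desaturase SCD5 (0.85, limma adjusted p = 0.0108), and 2 fell, FADS3 (-0.57, adjusted p = 0.0477) and ELOVL7 (-0.39, adjusted p = 0.0213). Of 10 genes of fatty acid oxidation 0 rose and 3 fell, ECI1 (-0.92, limma adjusted p = 0.0232), the carnitine transferase CPT1A (-0.60, adjusted p = 0.0445) and CPT2 (-0.38, adjusted p = 0.0213). These list calls are given over all libraries only, without a letter-set term, and their stability is not given. In the controls CPT1A was 26.4 to 28.9 RPKM in A to H and 5.51 to 6.48 RPKM in I to Z. NPC1 was 49.6 to 61.5 and 30.5 to 37.4 RPKM there. WT-AURKA c2, with no library of A to H, had 3.29 and 4.48 RPKM of CPT1A. Within each letter set every AURKA library of CPT1A was below every control library.

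Between NLS-AURKA and NES-AURKA, where 19.1% of all genes were higher and 14.1% lower, the LXR efflux list had 0 of 6 higher and 3 lower: the cholesterol exporter ABCG1 by -2.63 (SE 0.36, limma adjusted p = 0.000827), the phospholipid acyltransferase LPCAT3 by -1.33 (adjusted p = 0.000615) and the receptor NR1H2 by -0.42 (adjusted p = 0.0119). ABCG1 was near the floor in the NLS-AURKA libraries, at 0.0202 to 0.106 RPKM. It was 0.441 to 14.0 RPKM in NES-AURKA and 4.69 to 15.2 RPKM in the controls. The SREBP processing list had 0 of 7 higher and 3 lower, among them the site-2 protease MBTPS2 by -0.91 (limma adjusted p = 0.00154). Among other fatty acid synthesis genes 3 of 17 were higher and 6 lower, with the malic enzyme ME1 and the acyl-CoA synthetase ACSL1 both at -1.06 (limma adjusted p = 0.000836 and 0.0311) and the reductase TECR at 0.75 (adjusted p = 0.000766). Of 10 oxidation genes 4 were higher and 0 lower, ACADM by 0.64 (limma adjusted p = 0.0165), HADHA and HADHB by 0.54 each (adjusted p = 0.00337 and 0.00153) and ACADVL by 0.44 (adjusted p = 0.0120). In the uptake list 1 was higher, SOAT1, and 2 were lower, NPC2 and SCARB1, and in the isoprenoid list 0 were higher and 1 lower, PDSS2. Between NLS-AURKA and WT-AURKA (18.7% and 17.4% of all genes) ABCG1 differed by -1.40 (limma adjusted p = 0.0145) and LPCAT3 by -0.98 (adjusted p = 0.00225), and the acyl-CoA synthetase ACSL4 by -1.23 (adjusted p = 0.000192). Between NES-AURKA and WT-AURKA (1.56% and 3.3% of all genes) 3 genes of these lists passed, SCARB1 (0.68, limma adjusted p = 0.00574), ACSL4 (-0.62, adjusted p = 0.0291) and SOAT1 (-0.53, adjusted p = 0.0396).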

How the data were processed

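The 26 samples of 9 lines each gave 1 mRNA library, from an input of 500 ng RNA, per the labels' protocols. The authors deposited RPKM values of 33562 genes, and HISAT2, SAMtools, Partek and build hg19 are named in the submitters' processing notes. Not given in the sources used here are the tools' versions, the annotation, the strand setting and how reads with several matches were counted, so genes with close copies or overlapping neighbours may share reads. Depth was estimated from steps of low RPKM values with GENCODE 29 transcript lengths, and counts were not recovered.

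The 31 genes and the pathway lists were chosen with earlier results of these data known. Groups came from the labels. Genes with at least 1 RPKM in 2 libraries were tested on log2(RPKM + 1) with limma 3.58.1 in R 4.3.3, with 1 value per line and Benjamini-Hochberg adjustment over all tested genes. Constructs were compared in 1 fit of 4 groups, clones in a fit of all 26 libraries, and letter sets with the line as a term. The scripts were tested on simulated data. All 31 genes could be named. One gene of a pathway list is not reported here and was left out of its counts. Of each pathway list up to 4 genes were named, first those called against the controls by size, then those called between constructs. Alternatives changed the pseudocount, the filter, the scaling, the letter sets and the blocks, and left out each line and library in turn. RefSeq promoter windows are of GRCh38.p14, another build than that of the table, and were matched by symbol only.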

Additional observations from a re-analysis of the deposited data

Results flagged for a closer look

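In 3 of the 31 genes 1 AURKA clone stood apart from the other 5, by a rule that chance meets in about 1 of 20 groups. NES-AURKA c1 was highest for CYP51A1 at 67.9 RPKM and for ACACA at 18.4 RPKM, and NES-AURKA c2 was lowest for SC5D at 6.54 RPKM. Library F raised the NES-AURKA c1 means, with 99.2 RPKM of CYP51A1 and 35.6 RPKM of ACACA, while the SC5D values of NES-AURKA c2 were 6.51, 6.69 and 6.43 RPKM in its 3 libraries.

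A further set of genes differed between constructs by the test of the difference itself in limma. Between NLS-AURKA and NES-AURKA these were PMVK (0.84), FDPS (0.76), ACAT2 (0.65), HSD17B7 (0.38), MVK (0.31), NSDHL (-0.63), SREBF1 (-0.65) and EBP (-1.48), as log2 differences. Between NLS-AURKA and WT-AURKA they were HMGCS1 (0.80), FASN (0.67), FDPS (0.43), MVK (0.42), SQLE (0.41), HSD17B7 (0.35), ACLY (0.35), NSDHL (-0.74), SREBF1 (-0.76), FDFT1 (-0.92), INSIG1 (-1.05) and EBP (-1.89). Between NES-AURKA and WT-AURKA it was PMVK (-0.89). Each construct has 2 clones, and the guide differed between the NLS lines and the others.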

How the results depend on the processing

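Of the 12 genes called between AURKA and control lines, 0 were called in every one of 45 alternatives, since A to H alone called 2 and leaving out 1 line or library gave 4 to 17. The 540 alternative values of these 12 genes kept their direction, and 72 lost the call. Between NLS-AURKA and NES-AURKA the count of 8 was 5 with no filter, 14 in I to Z, 2 in A to H and 4 to 15 when 1 line or library was left out, and 2 of 8 genes were called throughout. Between NLS-AURKA and WT-AURKA the count of 12 was 5 with no filter, 1 in A to H, 7 with a letter-set term and the line as a random block, and 2 to 16 on leaving out, and 1 of 12 was called throughout. Between NES-AURKA and WT-AURKA the count of 1 was 4 in I to Z, 0 in A to H and 0 to 15 on leaving out. The 16 calls of clones were 29 in I to Z and 11 to 20 on leaving out, and the 11 differences between letter sets were 9 to 18. Fewer samples enter the letter-set and leave-out fits, and otherwise the cause was not tested. Shares of all genes are not given for the leave-out fits, so their counts are not read as particular to the genes described here.

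The direction turned for SREBF1 in I to Z (0.073) and for SREBF2 (-0.25), FADS1 (-0.094) and SCD (-1.62) in A to H, all against the controls and none of them called in the full set. On leaving out 1 line or library TM7SF2 ran from -0.023 (without NES-AURKA c1) to 0.24 (without NES-AURKA c2), and SCD from -0.093 (without I) to 0.46 (without C), below 0 also without F, H, J, K, L, M, N or U. INSIG1 between NLS-AURKA and WT-AURKA was 0.17 in A to H. The tests rest on 3 control lines and 2 clones per construct.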
